A study of Mus musculus with 221 samples.

Results

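The HFD embryos numbered 31 to 70 are a run of 38 single early 2-cell mouse embryos whose fathers had eaten a high-fat diet (HFD). The series holds 84 more HFD embryos and 99 embryos of fathers on a low-fat diet (LFD). Members of the run were taken by the number in the sample title, in which 34 and 69 are absent, and were set against the other 84 HFD embryos (27 numbered 1 to 30 and 57 numbered 71 to 130). The run was chosen because it holds most of the raised mitochondrial tRNA of the HFD embryos. Mitochondrial values are therefore a description with no test, and the p-values of nuclear genes measure the difference against the spread between embryos without allowing for how the boundaries were found. All embryos had C57BL/6N nuclear DNA and mitochondrial DNA of the Staudach (ST) mouse line, because ST oocytes were fertilized in vitro with frozen-thawed C57BL/6N sperm. The HFD sires ate that diet, and those of the LFD embryos the low-fat diet, for 2 weeks before sperm was taken at 8 weeks of age. Per the study's methods, 4 males served per diet and each fertilization date had its own pair of males. The labels name neither sire nor date, so embryo number, sire and date cannot be told apart, and embryos of 1 father counted as separate replicates make the p-values too small.

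Mitochondrial DNA is transcribed as long precursors from both strands. In most places tRNA genes lie between the protein-coding and rRNA genes, and mature mRNAs and tRNAs are released by cutting at the tRNA ends. Smart-seq2, the protocol used on each embryo, primes cDNA on poly(A) tails. A count in an mt-tRNA gene can therefore come from an uncut precursor as well as from a tRNA. The protocol also keeps no strand, whereas the reads were counted for 1 strand, so reads of a gene and of its partner on the opposite strand cannot be told apart. At the early 2-cell stage most mRNA was made by the oocyte and is being degraded, and the first large set of embryonic genes has just been switched on. Both kinds of transcript had summed levels of similar mean in the run and the other HFD embryos. For 46 oocyte transcripts the mean was 16.06 ± 0.33 (SD) in the run against 16.12 ± 0.43, with medians of 15.97 and 16.27. For 29 genome activation genes it was 11.86 ± 0.33 against 11.93 ± 0.35, with medians of 11.93 and 11.95. These levels are the log2 of summed CPM (counts scaled to a common library size with TMM factors) with 0.5 added.

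The tRNA genes that differed most in the run lie in 2 places of the mitochondrial genome, and their reference sequences are shown with mt-Ts1, which the rule left out. Sequences are the GRCm38 reference (C57BL/6J mitochondrial DNA, GENCODE M21), 5′ to 3′ on the strand of the gene, and capitals mark bases that another mitochondrial gene also covers. Genes for isoleucine, glutamine and methionine tRNA adjoin at MT:3706-3913 between mt-Nd1 and mt-Nd2, and genes for threonine and proline tRNA follow mt-Cytb at MT:15289-15422. The sequence of the ST line, to which the authors aligned, was not used here.
mt-Ti (MT:3706-3774, + strand): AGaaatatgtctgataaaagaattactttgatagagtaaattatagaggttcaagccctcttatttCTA
mt-Tq (MT:3772-3842, - strand): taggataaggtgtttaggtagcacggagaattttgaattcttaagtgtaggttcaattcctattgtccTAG
mt-Tm (MT:3845-3913, + strand): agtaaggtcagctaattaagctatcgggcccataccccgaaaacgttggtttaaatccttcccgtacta
mt-Tt (MT:15289-15355, + strand): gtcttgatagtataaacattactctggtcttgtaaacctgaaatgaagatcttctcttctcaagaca
mt-Tp (MT:15356-15422, - strand): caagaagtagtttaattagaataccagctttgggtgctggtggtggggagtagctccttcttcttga
mt-Ts1 (MT:6870-6938, - strand): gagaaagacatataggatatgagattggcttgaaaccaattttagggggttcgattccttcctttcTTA
The 3 shared bases of mt-Ts1 belong to the end of mt-Co1 on the other strand. The capitals of mt-Ti are shared with mt-Nd1 at its start and with mt-Tq at its end.

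Summed over the 21 mt-tRNA genes other than mt-Ts1, the log2 level ran from 6.50 over a median of 7.87 to 8.65 in the run, and from 5.07 over 6.57 to 8.80 in the other HFD embryos. The mean was 7.78 ± 0.51 (SD, n = 38) against 6.59 ± 0.59 (n = 84), and 37 of 38 run embryos lay above the median of the others. In LFD embryos the mean was 6.41 ± 0.41 for numbers 31 to 70 (n = 39) and 6.47 ± 0.58 for the rest (n = 60). The groups of HFD embryos overlapped, since embryo 28 held the highest value of all. With mt-Ts1, which took 65.1% of the mt-tRNA counts in the run and 80% in the other HFD embryos, the difference shrank from 1.19 to 0.35.

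**Figure D1:**
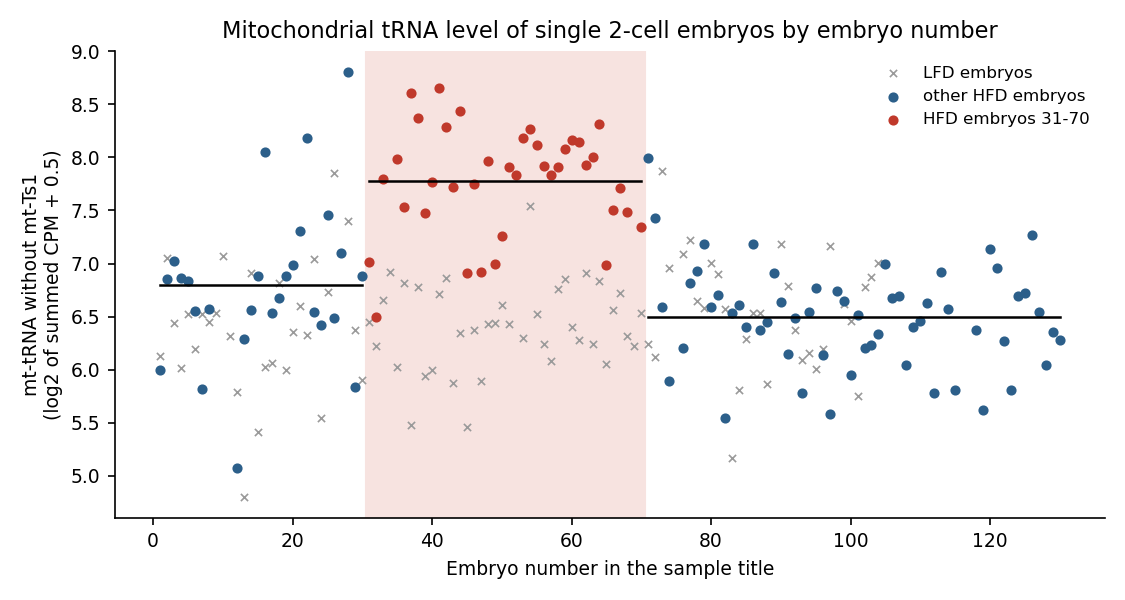
Summed level of the mt-tRNA genes without mt-Ts1 (y axis, log2 of summed CPM + 0.5) against the number in the sample title (x axis), 1 point per embryo, with black lines at the HFD means of numbers 1-30, 31-70 and 71-130 and shading over 31-70. The HFD points step up near number 33 and down after number 71, while LFD points (crosses) of the same numbers stay near 6.41.

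The edges of the raised stretch did not fall exactly on the boundaries of the run. Embryos 31 and 32 had levels of 7.01 and 6.50, like most of those below them, and embryo 33 was the first of the run to stand higher, at 7.80. Among lower numbers, embryos 16 (8.05), 22 (8.18) and 28 (8.80) stood above embryo 33. On the upper side, embryo 70 stood at 7.35, embryo 71 just outside at 7.99 and embryo 72 at 7.43, after which 73 and 74 returned to 6.59 and 5.89. The mean by ranges of 10 numbers was 6.56, 6.66 and 7.10 up to number 30, then 7.67, 7.69, 8.02 and 7.71 within the run, and 6.85 in numbers 71 to 80. It lay between 6.28 and 6.54 in each later range. All 4 ranges of the run thus stood above all 9 others.

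Among the mt-tRNA genes, mt-Tq differed most. Its level ran from 5.32 over a median of 6.85 to 7.84 in the run and from 3.69 over 5.27 to 7.53 in the other HFD embryos, a difference of means of 1.49 ± 0.12 (SE). All 38 run embryos lay above the median of the others, 3 above their highest, and 31 above the highest LFD embryo. Its share of the mt-tRNA counts was 17.9% in the run and 8.31% in the other HFD embryos. mt-Tm, next to it on the other strand, had medians of 4.43 and 3.11 (ranges 3.38 to 5.51 and 1.64 to 5.86), and again all 38 run embryos exceeded the median of the others. The third gene of that group, mt-Ti, differed by 0.84 ± 0.17.

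At the other place, mt-Tp ran from 3.99 over 5.45 to 6.59 in the run and from 2.61 over 4.23 to 6.23 in the others, a difference of 1.07 ± 0.11. The adjoining mt-Tt ran from 3.11 over 4.32 to 5.69 and from 1.48 over 3.15 to 4.89, a difference of 1.08 ± 0.12, and 7 run embryos lay above the highest of the others. For both genes 37 of 38 run embryos stood above the median of the others. Of the 22 mt-tRNA genes, 11 passed the count filter, and all 11 had a higher mean in the run, by 0.03 to 1.49 (median 0.67). mt-Ts1 gave the smallest of these differences: its levels ran from 7.10 over 8.66 to 9.80 in the run and from 7.06 over 8.66 to 10.39 in the others. The 11 genes that failed the filter had 2 to 916 counts each over all libraries and are not described singly.

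The mitochondrial mRNAs moved unevenly. The 13 genes together had a mean of 15.68 ± 0.46 in the run and 15.48 ± 0.49 in the other HFD embryos. Of the 13, 8 had a higher and 5 a lower mean in the run, from -0.30 for mt-Co2, a complex IV subunit, to 0.70 ± 0.13 for mt-Nd6. mt-Nd6, the only complex I subunit on the minus strand, lies beside mt-Te, which was higher by 0.67 ± 0.15. mt-Cytb of complex III, next to mt-Tt, was higher by 0.61 ± 0.13 with a median of 13.48 against 13.07. The rRNA genes had a lower mean, by -0.37 ± 0.16 for mt-Rnr1 and -0.05 ± 0.11 for mt-Rnr2. Measured against the mt-mRNAs of the same embryo, the mt-tRNA level without mt-Ts1 was still higher in the run, with a mean log2 ratio of -7.90 ± 0.40 against -8.89 ± 0.44.

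**Figure D2:**
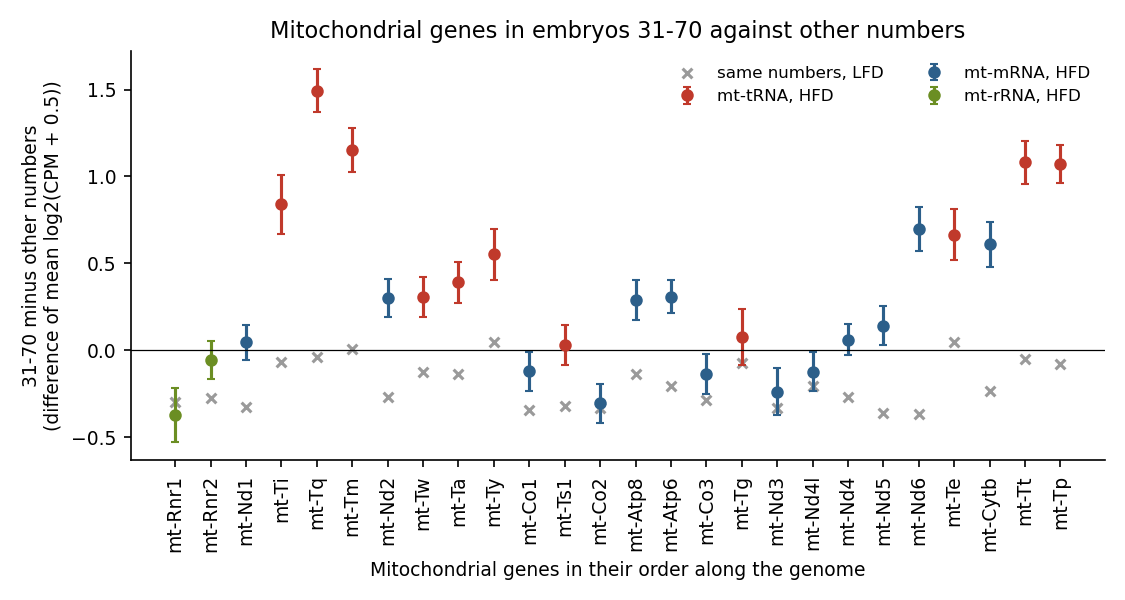
Difference of the mean log2(CPM + 0.5) between HFD embryos 31-70 and other HFD embryos (y axis; points with bars of 1 SE of the difference) for the 26 mitochondrial genes that passed the count filter, in genome order (x axis), coloured by class, with the same difference in LFD embryos as crosses. The tRNA genes beside mt-Nd1 and mt-Nd2 and those after mt-Cytb stand highest, mt-Tq at 1.49, and mt-Ts1 stands near 0.

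Run embryos had lower total counts and fewer genes detected, and whether this arose in the embryos or in their libraries cannot be told apart. Total counts ran from 2626218 to 8208091 in the run (median 5127570) and from 2296020 to 13155271 in the other HFD embryos (median 5831589). The mean log2 total was -0.21 relative to the others (2-sided permutation test, p = 0.00171, adjusted over 3 tests 0.00256). Genes with a count numbered 11415 to 20300 in the run, with a median of 17613, against 14853 to 21638 with a median of 19310. Only 2 of 38 run embryos reached the median of the others, and the mean was 17255 ± 1941 against 19063 ± 1038 (p = 1e-05, the smallest the permutations can give, adjusted 3e-05). After thinning every library to 1937251 counts the means were 16362 and 17685 (permutation p = 1e-05). LFD embryos stood at 18581 ± 1602 for numbers 31 to 70 and 18465 ± 1610 otherwise. Over nuclear genes, mean log2 levels in the run had a median difference of -0.19 from the other HFD embryos, so differences of mean levels are to be read against that shift. The 100 most abundant genes held 29.9% of counts in the run and 31.1% in the other HFD embryos (means). The edgeR fold changes, which compare mean counts, had a median of -0.03.

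**Figure D3:**
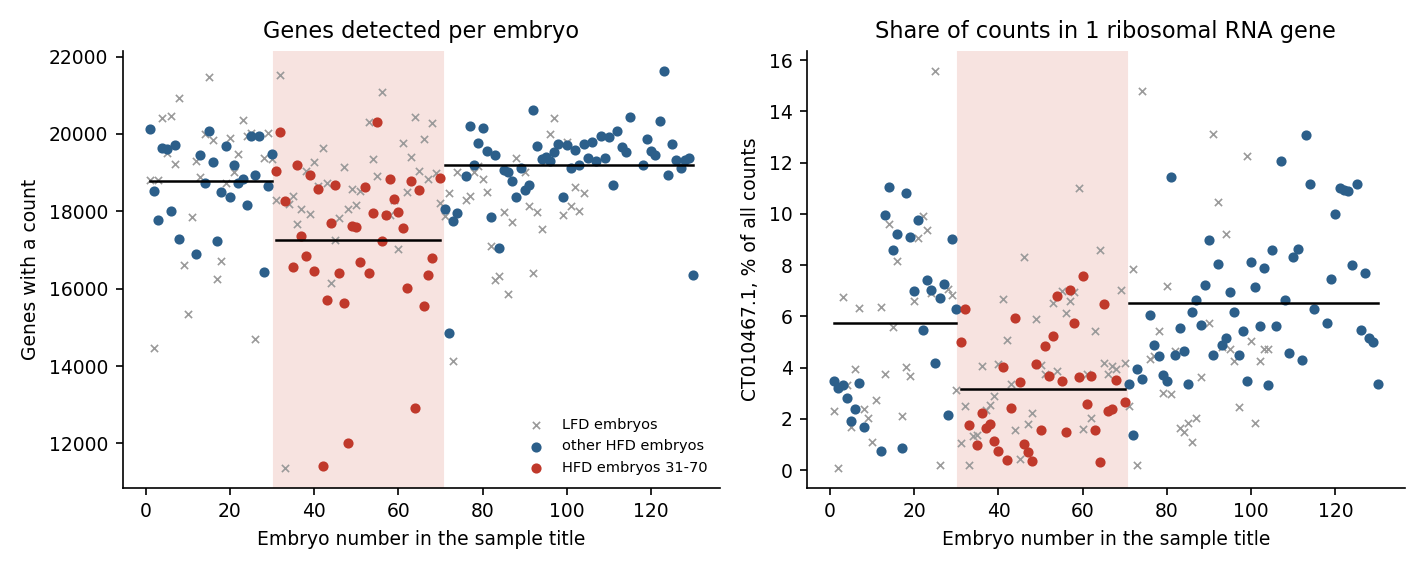
Left, genes with at least 1 count per embryo (y axis), and right, the percentage of all counts in the ribosomal RNA gene CT010467.1 (y axis), against embryo number (x axes), with LFD embryos as crosses and black lines at the HFD means of numbers 1-30, 31-70 and 71-130. Run embryos sit lower in both panels, with means of 17255 genes and 3.18% of counts, and 3 of them had under 15000 genes.

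In nuclear genes, edgeR's quasi-likelihood test passed 1798 of 15738 genes (11.4%) at a false discovery rate (FDR) under 0.05, 857 of them higher in the run (5.45%) and 941 lower (5.98%). These shares are given as background for the counts below and carry no weight of their own, because the same embryos set the boundaries. Most differences were modest: the median size was 0.47 on the log2 scale for higher genes and 0.46 for lower ones, and 50 genes in each direction changed more than 2-fold. Higher genes made up 47.7% of the calls by edgeR, 23.2% by limma-voom (median log2 fold change -0.20) and 64.2% by edgeR without a filter on low counts. Genes higher in the run had a median GC content of 46.6% in their longest transcript, genes lower in the run 49.8%, and all tested genes 49.1%. Across 15438 genes GC content and fold change had a Spearman correlation of -0.08, as a description. Protein-coding genes made up 83.1% of the higher, 82.9% of the lower and 79.9% of all tested genes. Called genes were also more abundant, with a median average log2 CPM of 5.5 for higher and 6.2 for lower genes, against 3.8 for all tested genes.

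**Figure D4:**
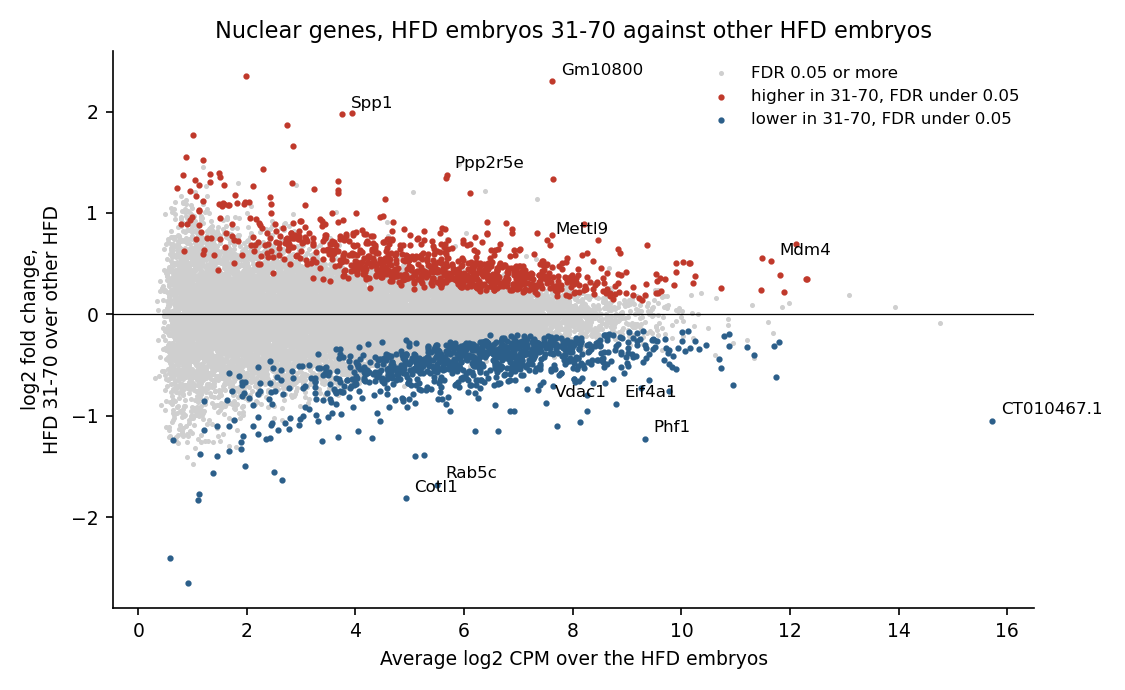
Log2 fold change of HFD embryos 31-70 over other HFD embryos (y axis, edgeR) against average log2 CPM (x axis), 1 point per nuclear gene, coloured where the FDR is under 0.05. Higher and lower genes are spread over all levels, and the labelled Gm10800 (2.30) and Cotl1 (-1.81) are among the largest at middle levels.

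Of the lower genes, Vdac1 had the smallest p-value, and Eif4a1 the most run embryos below the lowest of the others among the named genes. Eif4a1, the RNA helicase of the cap-binding initiation complex, ran from 6.12 over a median of 7.76 to 9.70 in the run and from 7.96 over 8.98 to 10.06 in the other HFD embryos. Its log2 fold change was -0.88 ± 0.10 (SE, edgeR FDR 4.26e-12), and 24 of 38 run embryos lay below the lowest of the others. Vdac1, the main channel of the mitochondrial outer membrane, ran from 5.21 over 6.77 to 7.74 against 6.16 over 7.77 to 8.31, and no run embryo reached the median of the others (-0.88 ± 0.09, edgeR FDR 1.44e-13). LFD embryos had medians for Eif4a1 of 8.83 in numbers 31 to 70 and 8.94 otherwise, and for Vdac1 of 7.58 and 7.72. Eif4a-ps4, a processed copy that shares 98.2% of its 21-base words with Eif4a1, cannot be told apart from it by its reads and is not counted as a second gene here.

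The other lower genes with the smallest p-values include chromatin proteins and a regulator of membrane traffic. Phf1, a Polycomb-associated reader of histone methylation, ran from 3.94 over 8.10 to 9.89 in the run and from 7.55 over 9.64 to 10.47 in the others (-1.23 ± 0.14, edgeR FDR 4.26e-12). Cuta overlaps Phf1 on the opposite strand and had medians of 7.11 and 8.42 (-1.06 ± 0.12), so the pair counts as a single measurement. Epc1, a subunit of the NuA4 histone acetyltransferase, had medians of 5.91 and 7.07, and 20 of 38 run embryos lay below the lowest of the others. Rab5c, a GTPase of early endosomes, ran from 0.19 over 3.76 to 6.37 against 3.26 over 5.62 to 7.36 (-1.68 ± 0.19, edgeR FDR 2.39e-11).

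The largest falls at the level minimum of 3 log2 CPM were those of Cotl1 and Rab5c. Cotl1, which binds actin filaments, had medians of 3.11 in the run and 4.89 in the others (-1.81 ± 0.25). Kdelr1, a receptor that returns proteins to the endoplasmic reticulum, had medians of 3.91 and 5.53 (-1.39 ± 0.16), and 2 of 38 run embryos stood above the median of the others. Tdpoz3, a gene first switched on at the 2-cell stage, had medians of 3.72 and 5.21 (-1.39 ± 0.21). Pabpn1l, an oocyte poly(A)-binding protein needed for maternal mRNA decay, had medians of 2.73 and 3.72 (-1.21 ± 0.24). The pseudogene Bambi-ps1 (-1.25 ± 0.27) and the predicted gene Gm5576 (-1.22 ± 0.26) completed the 8. Of these 8, Phf1 and Rab5c are described above, all were called (largest edgeR FDR 0.000492, for Bambi-ps1), and in each the groups overlapped.

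Among higher genes, Ppp2r5e, Mettl9 and Mdm4 combined a small p-value with a clear shift of most embryos. Ppp2r5e, a regulatory subunit of protein phosphatase 2A, ran from 2.49 over 6.34 to 7.42 in the run and from 2.76 over 4.78 to 7.06 in the other HFD embryos (1.38 ± 0.16, edgeR FDR 6.68e-11), and 36 of 38 run embryos lay above the median of the others. Mettl9, a protein-histidine methyltransferase, ran from 7.0 over 7.94 to 9.03 against 6.31 over 7.19 to 8.25 (0.73 ± 0.08, edgeR FDR 3.73e-12). Gm9905 lies on the other strand of Mettl9 and moved with it (0.84 ± 0.12). Mdm4, an inhibitor of p53, was the most abundant of these genes, with medians of 11.91 and 11.46 (0.53 ± 0.06) and 36 of 38 run embryos above the median of the others.

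The other large rises were less even between embryos. Zfp622, a zinc finger protein, had medians of 7.98 and 6.55 (1.33 ± 0.21). Gm37376, on the strand opposite the nuclear long RNA Malat1, had medians of 5.48 and 4.46 (1.35 ± 0.24), and Malat1 itself, named after its values were seen, was higher by 1.20 ± 0.23. Cdkn1c, an imprinted inhibitor of cyclin-dependent kinases, ran from -1 over 3.20 to 6.50 against -1 over 2.45 to 4.66 (1.24 ± 0.30). Spp1, the secreted protein osteopontin, ran from -1 over 2.37 to 8.41 against -1 over 1.95 to 5.69. Its fold change of 1.97 ± 0.43 (edgeR FDR 0.00054) stood beside medians that differed little, and 4 run embryos lay above the highest of the others. Gm40309, a predicted gene, had medians of 3.89 and 2.85 (1.32 ± 0.32), with 11 run embryos above the highest of the others.

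**Figure D5:**
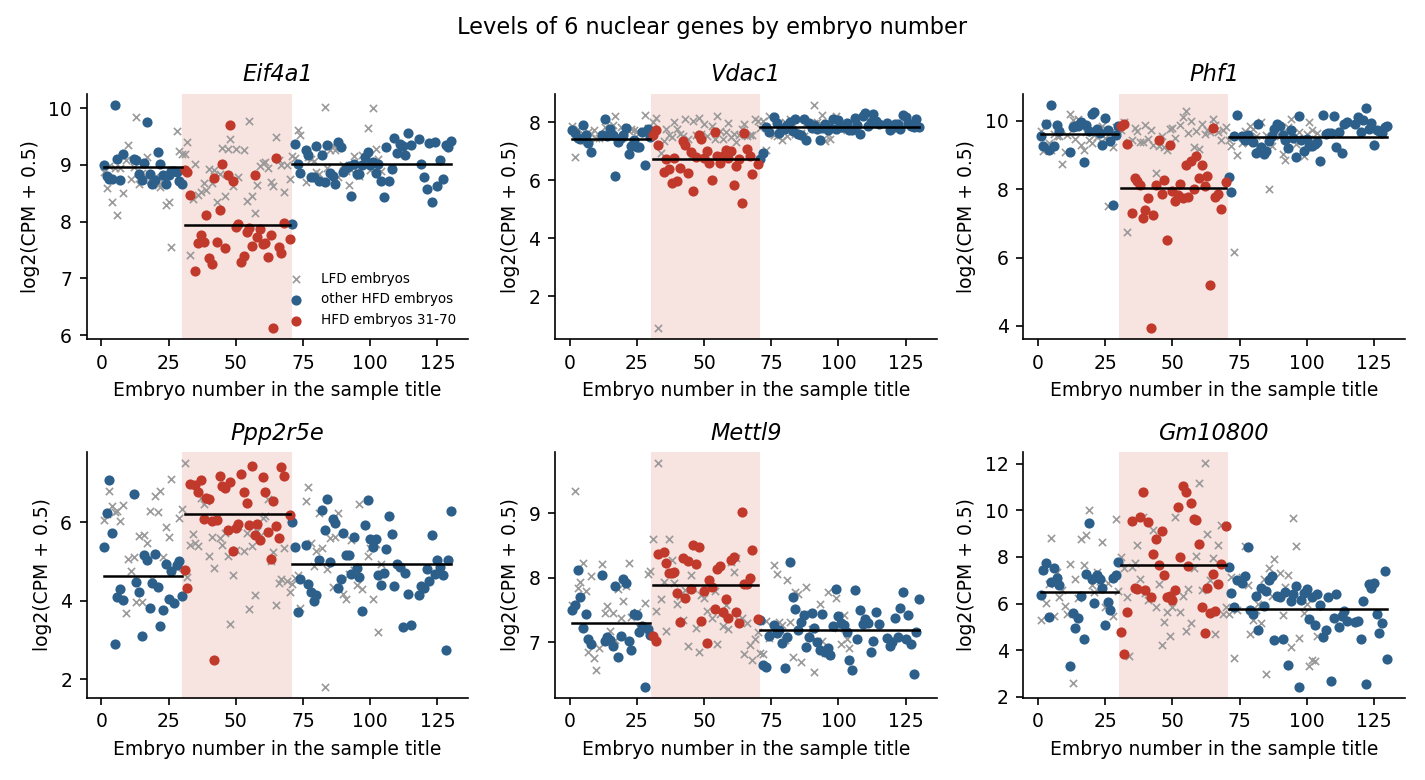
Levels of 6 nuclear genes (y axes, log2(CPM + 0.5)) against embryo number (x axes), 1 point per embryo, with LFD embryos as crosses, black lines at the HFD means of numbers 1-30, 31-70 and 71-130, and shading over 31-70. Eif4a1, Vdac1 and Phf1 sit lower and Ppp2r5e and Mettl9 higher in most run embryos, while Gm10800 spreads from 3.84 to 11.04.

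The edges of the run were also uneven in nuclear genes, though not at the same embryos as in the mt-tRNAs. In embryos 31 and 32 Eif4a1 stood at 8.91 and 8.87 and Phf1 at 9.86 and 9.89, near the medians of the other HFD embryos. Embryo 33 was the first of the run with a raised mt-tRNA level. Its Eif4a1 stood at 8.47 and its Phf1 at 9.32, both within the range of the others. In embryo 35 Eif4a1 stood at 7.13 and Phf1 at 7.31. Just outside the run, embryo 71 had 7.96 for Eif4a1 and 8.35 for Phf1, while embryo 72 had 9.37, above the median of the others, and 7.91. Embryo 28, which had the highest mt-tRNA level, also had a low Phf1 level of 7.55 but an Eif4a1 level of 8.87. Embryos 16 and 22, with mt-tRNA levels of 8.05 and 8.18, had Eif4a1 at 9.03 and 9.01 and Phf1 at 9.96 and 9.77. When numbers 31 and 32 were left out of the run, the test called 2279 genes, 1786 of them among the 1798.

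Gm10800 had the largest fold change among called genes of at least 3 average log2 CPM. It belongs to a set of gene models on chromosomes 2, 9 and 14 that share sequence with each other. Gm10718, on chromosome 9, was most like itself at a spacing of 234 bases (62.6% identity). No such spacing was computed for Gm10800. The first 234 bases of the 660-base Gm10800 transcript (GENCODE M21, gene at chr2:98666547-98667301, - strand) are printed to show the shared sequence, and capitals mark bases within 21-base words that occur in the other models of the set.
Gm10800: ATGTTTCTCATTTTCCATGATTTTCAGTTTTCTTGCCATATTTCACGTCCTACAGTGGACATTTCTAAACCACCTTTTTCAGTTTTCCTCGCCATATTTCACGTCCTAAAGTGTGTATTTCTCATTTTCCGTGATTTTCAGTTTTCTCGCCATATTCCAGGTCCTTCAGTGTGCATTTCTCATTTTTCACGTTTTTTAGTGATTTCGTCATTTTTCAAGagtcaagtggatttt
Gm10800 ran from 3.84 over a median of 7.44 to 11.04 in the run and from 2.44 over 6.28 to 9.46 in the other HFD embryos (2.30 ± 0.26, edgeR FDR 4.61e-12), and 10 run embryos lay above the highest of the others. Gm10801, beside it, was higher by 1.99 ± 0.25. The set, chosen after values were seen as the tested models that share at least 10% of their 21-base words with Gm10800, held 10 genes, and all 10 were called higher, by 0.88 to 2.30. They share sequence, so they are not taken as 10 separate observations. LFD embryos numbered 31 to 70 also had higher mean counts of Gm10800 than other LFD embryos (1.16 ± 0.35, edgeR FDR 0.9997), and the difference between the diets was 1.14 ± 0.45 (edgeR FDR 0.145). All models of the set that were tested in LFD embryos had a positive fold change there, from 0.46 to 1.16, and none was called. For none of the 10 was the difference between the diets called (edgeR FDR 0.10 to 0.88). Reads that align to several places were not counted, so these values cover only reads placed once.

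The most abundant gene of the table, the ribosomal RNA gene CT010467.1, chosen after its values were seen, took 0.30% to 7.59% of counts in the run (median 2.62%) and 0.73% to 13.1% in the other HFD embryos (median 5.89%). Its log2 fold change was -1.05 ± 0.18 (edgeR FDR 8.08e-06). In LFD embryos it took a mean of 4.16% ± 2.45 in numbers 31 to 70 and 5.12% ± 3.53 otherwise.

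Transcripts stored by the oocyte were lower in the run more often than higher. Of 45 tested oocyte transcripts 19 were lower and 4 higher (51.1% called, against 11.4% over all nuclear genes). These shares were not matched for level, and called genes were more abundant than all tested genes. Their median log2 fold change was -0.28, against -0.03 over all nuclear genes. Oosp1, an oocyte-secreted protein, had medians of 9.41 in the run and 9.85 in the others (-0.52 ± 0.10), and Nlrp4f, an oocyte NLR protein, 8.53 and 9.25 (-0.72 ± 0.15). Of 30 maternal mRNA decay factors 7 were lower and 2 higher (30% called, median -0.06). Dcp2, the enzyme that removes the mRNA cap, stood at medians of 7.63 and 8.14 (-0.48 ± 0.08) beside Pabpn1l. Of 28 tested genome activation genes 7 were lower, 1 was higher and 20 did not pass (28.6% called, median -0.20), with Tmem92 at -0.64 ± 0.13 beside Tdpoz3. With genes detected as a covariate Nlrp4f (edgeR FDR 0.0878), Dcp2 (0.0816) and Tmem92 (0.249) lost the call, while Oosp1, Pabpn1l and Tdpoz3 kept it. With the stretch of the sample list as a covariate Oosp1 (edgeR FDR 0.227), Nlrp4f (0.122) and Tmem92 (0.104) lost it, while Dcp2, Pabpn1l and Tdpoz3 kept it.

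Nuclear genes of oxidative phosphorylation had medians above that of all nuclear genes. Of 49 tested complex I genes 4 were higher and none was lower (8.16% called, against 11.4% over all nuclear genes, median 0.21). Ndufb6, an accessory subunit, had medians of 6.74 and 6.39 (0.35 ± 0.09), and Ndufb10, another, 2.19 and 1.51 (0.95 ± 0.26). Of 41 genes of complexes II to V 9 were higher and 3 lower (29.3% called, median 0.21). Atpif1, the inhibitor of ATP synthase, had medians of 5.86 and 5.29 (0.61 ± 0.12), whereas Atp5a1, the catalytic-head alpha subunit, had 7.02 and 7.35 (-0.35 ± 0.08). In LFD embryos the same numbers had medians over these lists of -0.10 and -0.12, with no gene called.

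Genes that make, process or translate mitochondrial RNA were called about as often as all nuclear genes (11.4%). Of 65 tested genes for mitochondrial RNA synthesis, processing and tRNA charging 1 was higher and 5 lower (9.23% called, median -0.08). The higher gene was Angel2, an RNA phosphatase (medians 10.26 and 10.10, 0.31 ± 0.07), and the lower gene with the smallest p was Gfm1, a mitochondrial elongation factor (-0.58 ± 0.15). Of 76 mitochondrial ribosomal protein genes 5 were higher and 3 lower (10.5% called, median 0.01), led by Mrpl40 (0.45 ± 0.09) and Mrpl42 (0.58 ± 0.13). Of 81 cytosolic ribosomal protein genes 2 were higher, Rpl35 (0.50 ± 0.13) and Rpl28 (0.44 ± 0.12) having the smallest p, and 2 were lower (4.94% called, median 0.06).

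Lists of stress, proteolysis and metabolism had between 10.3% and 17.02% of their tested genes called, against 11.4% over all nuclear genes. Of 29 mitochondrial and integrated stress response genes 4 were lower and none higher (13.8% called), among them Eif2ak4, the kinase GCN2 (-0.56 ± 0.15), and Shmt2, a mitochondrial serine hydroxymethyltransferase (-0.31 ± 0.08). Of 29 heat shock and immediate early genes 2 were higher, Jund (1.09 ± 0.30) and Gadd45a (0.51 ± 0.14), and 1 was lower (10.3% called). Of 27 antioxidant enzymes 4 were higher and none lower (14.8% called), led by Glrx5, which serves iron-sulfur cluster assembly (0.62 ± 0.11), and Prdx4, a peroxiredoxin of the endoplasmic reticulum (0.48 ± 0.13). Of 36 proteasome genes 3 were higher and 2 lower (13.9% called). The core subunit Psmb1 stood at 0.71 ± 0.13 and the regulatory subunit Psmd3 at -0.43 ± 0.09.

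Of 47 genes of glycolysis and the citric acid cycle 3 were higher and 5 lower (17.02% called, against 11.4% over all nuclear genes). Mpc1 of the mitochondrial pyruvate carrier stood at 0.42 ± 0.09 and citrate synthase (Cs) at -0.52 ± 0.11. Of 48 cell cycle regulators 3 were higher and 7 lower (20.8% called, against 11.4% over all nuclear genes, median -0.03). Wee2, the oocyte kinase that restrains CDK1, had medians of 10.66 and 10.99 (-0.31 ± 0.07), and Cdc25b, a phosphatase that activates CDK1, 4.35 and 4.96 (-0.70 ± 0.20). Of 32 tested histone genes 2 were higher and 1 lower (9.38% called, near the 11.4% over all nuclear genes). H3f3b and H3f3a, which encode the same variant histone H3.3, moved in opposite directions (0.56 ± 0.09 and -0.34 ± 0.08).

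Markers of other cell types were detected in both groups. Their shares called are to be read against 11.4% over all nuclear genes, and the share was 5.56% for the macrophage markers. The sperm and oviduct lists had only 7 and 6 tested genes. The 28 macrophage markers had a summed level from 8.08 over a median of 9.14 to 13.20 in the run and from 8.46 over 9.32 to 13.07 in the other HFD embryos, 10 of the 28 had a median count of 0 in both groups, and Spp1 was the only one of 18 tested that was called. The median log2 fold change of the 18 was 0.60, against -0.03 over all nuclear genes and -0.09 for the same list in LFD embryos. Their summed level had an SD of 1.21 in the run and 0.81 in the other HFD embryos, and no LFD embryo exceeded 9.97. With that level as a covariate edgeR called 1821 genes, 1695 of them among the 1798. Of 10 tested cumulus and granulosa markers edgeR called 0, and 1, Col4a2, had an unadjusted p under 0.05 (edgeR p = 0.0350, FDR 0.161). Their summed level was 5.99 to 8.81 in the run and 5.33 to 8.46 in the others, with a median count of 0 in the run for 16 of 25. Neither of the 2 tested red blood cell markers was called. The 26 sperm transcripts had a summed level of 7.65 to 9.26 in the run and 7.39 to 9.68 in the others (medians 8.62 and 9.02), 19 of them had a median count of 0 in the run, and of 7 tested 2 were lower (28.6%). Odf2, an outer dense fibre protein that embryos also express, had medians of 8.50 and 8.89 (-0.36 ± 0.07). Clu, clusterin, had medians of 0.98 and 1.01 with a highest value of 4.09 in the run and 8.70 in the others (-1.63 ± 0.56, edgeR FDR 0.0400), and against numbers 1 to 30 alone its sign turned (0.53, edgeR FDR 0.593). Prm2, protamine 2, did not pass the count filter. The 13 oviduct epithelial markers had a summed level of 7.36 to 9.78 in the run and 8.18 to 10.19 in the others, and of 6 tested 2 were lower (33.3%), Tubb4b (-0.43 ± 0.08) and Cdh1 (-0.54 ± 0.13), which embryos express themselves.

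Nuclear copies of mitochondrial DNA were not called. The 9 models had a summed level from 2.96 over a median of 4.64 to 9.97 in the run and from 2.55 over 4.22 to 10.99 in the other HFD embryos. Of the 6 tested, the largest log2 fold change was that of Gm10925 (0.77 ± 0.47, edgeR FDR 0.318), followed by Gm29216 (0.48 ± 0.32), Gm13340 (0.44 ± 0.24), Gm28439 (0.19 ± 0.39), Gm28661 (0.06 ± 0.46) and Gm28437 (-0.23 ± 0.50). Against numbers 1 to 30 alone Gm10925 (2.845, edgeR FDR 0.0003) and Gm28437 (1.95, 0.0109) were called higher. So were Gm28661 (1.76, edgeR FDR 0.0165) and Gm29216 (1.22, 0.0183), while Gm28439 (1.19, 0.0729) and Gm13340 (0.81, 0.0503) were not. Against numbers 71 to 130 alone none was called (edgeR FDR 0.52 to 0.91). Reads of these copies and of the mitochondrial genes themselves are hard to tell apart. Y chromosome reads, at least 10 counts over 10 genes, were found in 25 of 38 run embryos (65.8%) and 61 of 84 others (72.6%; Fisher's exact test, 2-sided, p = 0.521, adjusted over 3 tests 0.521). The share of embryos with Y reads was thus not shown to differ, and none of 7 tested Y genes was called.

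Most nuclear calls were lost when the number of genes detected entered the fit. With the number of genes detected as a covariate, edgeR called 162 genes, 148 of them among the 1798, and with the log2 total count as a covariate 1181. Among the genes above, Eif4a1, Vdac1, Phf1, Cuta, Epc1, Rab5c, Cotl1, Kdelr1, Tdpoz3, Pabpn1l, Ppp2r5e, Mettl9, Mdm4, Gm10800 and Gm10801 remained called with that covariate. Zfp622 (edgeR FDR 0.376), Cdkn1c (0.279), CT010467.1 (0.340), Tmem92 (0.249) and the named genes of oxidative phosphorylation (0.136 to 0.759) did not. Of 70 named genes, 34 lost the call with genes detected as a covariate, and 36 kept direction and side of the threshold. Among the 34 were H3f3b (edgeR FDR 0.826), Psmb1 (0.546), Cs (0.495) and Mpc1 (0.856). The part of the number of genes detected in these differences was not tested beyond that fit. Without the libraries of under 15000 genes, 3 in the run and 1 among the others, 1393 genes were called, 1257 of them shared.

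The order of the deposited sample list bore on the calls as well. The list falls into 4 stretches, each of LFD embryos followed by HFD embryos, and the labels do not say whether a stretch is a batch. Run embryos number 3, 2, 23 and 10 in the stretches, beside 27, 28, 7 and 22 other HFD embryos. Within stretch 3 the mt-tRNA level without mt-Ts1 was 7.92 ± 0.47 against 6.80 ± 0.68, and in stretch 4 it was 7.70 ± 0.37 against 6.33 ± 0.57. In stretch 1 it was 7.19 ± 0.80 (n = 3) against 6.74 ± 0.54, and in stretch 2 the 2 run embryos averaged 7.40 against 6.60 ± 0.59. Run embryos had fewer genes detected in stretch 3 (16869 against 19172), stretch 4 (17442 against 18947) and stretch 2 (17948 against 19142), but not in stretch 1 (19134 against 19048).

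The leading nuclear genes differed most within stretches 3 and 4. Stretches 1 and 2 hold only 3 and 2 run embryos. For Eif4a1 the run mean minus the mean of the others was -1.04 in stretch 3, -1.14 in stretch 4, -0.48 in stretch 1 and -0.37 in stretch 2. In the same order it was -1.81, -1.21, -0.08 and -0.24 for Phf1, and -1.07, -1.04, -0.24 and -0.43 for Vdac1. For Gm10800 it was 1.15, 2.12, -0.07 and -0.04. Ppp2r5e differed in stretch 2 about as much as in stretch 4, with 1.65, 1.31, 0.14 and 1.29. With the stretch as a covariate edgeR called 171 genes, 170 of them among the 1798, and with stretch and genes detected together 48, of which 44 were among the 1798. Eif4a1 had the smallest p of those 44, followed by Eif4a-ps4, Csnk2a1 (the catalytic subunit of casein kinase 2), Gm10800, Gm10801 and Vdac1, named here after their values were seen. When limma-voom was given the ranges of 10 numbers as blocks of correlated embryos, 1567 genes were called, 1064 of them among the 1798, against 3366 by limma-voom without the blocks.

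Each side of the run was also compared by itself. Against numbers 1 to 30 alone 1960 genes were called, 937 of them shared with the 1798, and against numbers 71 to 130 alone 1640, of which 1188 were shared, all in the same direction. Eif4a1 had log2 fold changes of -0.84 and -0.91 in these comparisons, and Ppp2r5e 1.49 and 1.31. Vdac1 was less lowered against the lower numbers (-0.58) than against the higher ones (-1.01), and Cotl1 likewise (-1.34 and -2.0).

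LFD embryos with the same numbers gave a comparison that the choice of the run did not use, since the run was not chosen on them. It was not matched for place in the sample list. Of LFD embryos 31 to 70 only numbers 67 to 70 lie in stretch 3, whereas 23 of the 38 run embryos do. Of 14979 nuclear genes, edgeR called 0 (0%) between LFD embryos 31 to 70 and the other LFD embryos. 569 genes had an unadjusted p under 0.05 (3.8%), and DESeq2 and limma-voom also called 0. Of the 1798 genes called in HFD embryos 1782 were tested in LFD embryos, and 781 (43.8%) had the same sign there, against 46.8% of all shared genes. The difference between the diets in the 31-70 contrast, tested as an interaction over all embryos, was called for 554 of 17394 genes (3.19%), 201 with a more positive (1.16%) and 353 with a more negative contrast (2.03%) in HFD embryos. For Eif4a1 it was -0.77 ± 0.13 (edgeR FDR 1.60e-05), for Phf1 -1.37 ± 0.17, and for Ppp2r5e 1.38 ± 0.26. LFD and HFD embryos of 1 number need not share a date, and whether the difference belongs to a sire, a date or the handling of these embryos cannot be told apart here.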

How the data were processed

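Counts of reads per gene in single embryos (38 of the run, 84 other HFD and 99 LFD) were used as deposited. Per the study's methods and the submitters' processing notes, the authors trimmed reads with Trim Galore 0.6.6 and aligned them with STAR 2.7.10a to GRCm38 carrying the Staudach mitochondrial sequence. Per the file headers, featureCounts 2.0.3 counted reads over exons of Ensembl release 102 genes, by strand (setting 2) and with both ends aligned. Each read of a pair was counted by itself, and 65.8% of counts above 0 were even. All sample columns were used. Total counts ran from 1937251 per embryo upwards, and PCR reads without molecular identifiers make counting error a lower limit.

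Groups follow diet and number in the titles. edgeR 4.0.16 (R 4.3.3; quasi-likelihood test, TMM, filterByExpr by group, Benjamini-Hochberg FDR under 0.05) tested nuclear genes within HFD, within LFD, and their difference. Total counts and genes detected were compared by permutation (100000, 2-sided), and Y reads by Fisher's exact test. Levels are log2(CPM + 0.5) with TMM factors over all embryos. DESeq2 1.42.0 and limma 3.58.1 served as alternatives. Tested on simulated data of this comparison (15188 genes), 45 of 50 genes raised by 1 on the log2 scale and 26 of 50 raised by 0.5 were called, with 6 false calls. The simulated embryos were drawn independently, without shared sires or dates, so the 6 do not measure false calls among the real embryos. The 20 most similar pairs of HFD libraries differed by a chi-square of at least 13.0 per gene, so none was merged.

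The run, the 27 gene lists and the tests were chosen with earlier results of these data known. Named nuclear genes are, among called genes of at least 3 average log2 CPM, the 8 largest and 8 smallest fold changes and the 6 smallest p in each direction, the 2 called members of each list with the smallest p, Prm2, Clu and the tested nuclear copies of mitochondrial DNA. Permutation and exact tests used scipy 1.17.1, tables pandas 2.3.3 and numpy 2.4.6, and plots matplotlib 3.10.9, under Python 3.11.15.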

Additional observations from a re-analysis of the deposited data

Results flagged for a closer look

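Of 71 named nuclear genes, 33 had a contrast of numbers 31 to 70 with other numbers that differed between HFD and LFD embryos by edgeR's interaction test (FDR under 0.05 over 17394 genes). The p-values do not allow for how the run was chosen in HFD embryos. Most named genes were also chosen because they were called in the HFD contrast, which is part of this difference. Their count past the threshold was raised by that choice and carries no weight of its own. Over all nuclear genes tested, 554 of 17394 (3.19%) passed. Each value is the HFD contrast minus the LFD contrast in a joint fit of all embryos. It can therefore differ slightly from the fold changes of the separate fits within each diet. No explanation was weighed.

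The contrast was more positive in HFD embryos for 13 genes. It was largest for Spp1 (2.23), Ppp2r5e (1.38), Ndufb10 (1.23) and Psmb1 (0.98). It was smaller for Mrpl42 (0.67), Atpif1 (0.60), Mpc1 (0.55), Rpl28 (0.52), H3f3b (0.50), Mrpl40 (0.50), Mettl9 (0.49), Ndufb6 (0.42) and Mdm4 (0.35). For Ppp2r5e the HFD contrast was 1.38 and the LFD contrast -0.03, whereas Mettl9 and Mdm4 had LFD contrasts of 0.22 and 0.15, neither past the test.

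The contrast was more negative for 20 genes. Clu had the largest difference (-3.14), with no separate LFD fit because it did not pass the count filter within LFD embryos. It was followed by Cotl1 (-1.77), Rab5c (-1.57), Phf1 (-1.37), Gm5576 (-1.25), Kdelr1 (-1.24), Cuta (-1.19), Tdpoz3 (-1.15), Pabpn1l (-1.12) and Epc1 (-1.02). Smaller differences were those of Vdac1 (-0.82), Nlrp4f (-0.78), Eif4a1 (-0.77), Eif2ak4 (-0.68), Dcp2 (-0.65), Tmem92 (-0.61), Cs (-0.61), Psmd3 (-0.54), Odf2 (-0.46) and Wee2 (-0.41).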

How the results depend on the processing

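The count of 1798 called genes in HFD embryos moved by over 1.5 times in 7 alternatives. It was 9435 without a filter on low counts (43173 genes tested), 3366 by limma-voom (1567 with ranges of 10 numbers as blocks), 1181 with total counts, 171 with the listing stretch and 162 with genes detected as a covariate, 48 with both, and 842 without numbers 41 to 50. Leaving out each range of 10 gave 842 to 2044. The other alternatives gave 1393 to 2290. In LFD embryos the count of 0 became 2923 without the filter. For the difference between the diets the count of 554 became 4615 without the filter, 954 by DESeq2 and 1328 by limma-voom. Of 1329 values for 70 named genes under these alternatives, 1142 kept direction and side of the threshold, 178 lost the call, 4 gained it and 5 reversed. Of the losses, 34 came with genes detected, 38 with the listing stretch and 44 with both as covariates. With both covariates Rpl28 (-0.00227), Angel2 (-0.0147) and H3f3b (-0.0450) reversed, and against numbers 1 to 30 Clu (0.53) and Gm28437 (1.95, edgeR FDR 0.0109) did. The cause was not tested. The mt-tRNA difference of 1.19 was 1.16 without libraries under 15000 genes. That value and the fits with both covariates and without numbers 31 and 32 were chosen after seeing the data. No paired analysis was possible because the run and the other HFD embryos share no number, and numbers shared between diets pair no samples. In simulated data 26 of 50 genes raised by 0.5 on the log2 scale were called, which limits what smaller changes can show.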
